A study of Homo sapiens with 12 samples.

Results

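The 44 genes described here encode the proteins that copy DNA in S phase. They were found in the deposited count table, which holds 60483 Ensembl gene identifiers, by matching each identifier without its version to the symbols of the set. All 44 were found and all 44 passed the filter on low counts that left 14412 genes for testing. It divides into 10 roles. These are licensing of origins (10 genes), activation of the helicase (6), polymerases and primase (8), the sliding clamp and its loader (6), single-strand binding (3), joining of Okazaki fragments (2), nucleotide supply (3), cyclin E (2), chromatin behind the fork (3) and protection of the fork (1).

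Replication is prepared in G1, when the origin recognition complex, CDC6 and CDT1 load rings of MCM2 to MCM7 onto DNA. CDC45, the GINS complex and MCM10 then turn those rings into running helicases. Primase with polymerase alpha starts each strand, polymerases epsilon and delta extend it on the PCNA clamp, and FEN1 and LIG1 join the lagging-strand pieces. Many of these genes are targets of E2F transcription factors, which cyclin-dependent kinases release from the retinoblastoma protein, and mantle cell lymphoma is known for high cyclin D1, a partner of those kinases.

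The cells were REC1, an established line of human mantle cell lymphoma. They were exposed to ibrutinib with SPX5551 (the combination), to ibrutinib alone, to SPX5551 alone or to DMSO, and RNA was taken at 4, 8 and 12 h. Ibrutinib is a covalent inhibitor of the kinase BTK, and SPX5551, called pol5551 in the column headers, is presented by the study's title as an inhibitor of the chemokine receptor CXCR4. There was 1 library for each treatment and time, 12 in all, so the 3 times stand as replicates of a treatment (n = 3) and the 4 treatments as replicates of a time (n = 4). Nothing in the labels says that the libraries came from separate cultures, so p-values measure the spread between these libraries only. These are cultured cells of 1 line, with doses not given in the sources used here.

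The labels go against each other on one point that touches every comparison of treatments. Column headers match the sample titles and treatments, and they were used throughout. The descriptions instead point each sample to a column of the same time but another treatment, so that the DMSO sample is tied to the combination column, the ibrutinib sample to the DMSO column, the SPX5551 sample to the ibrutinib column and the combination sample to the SPX5551 column. Comparisons of times are the same under both pairings, because the time agrees in every case. Treatment results are given by header. The value with columns paired by description follows for members that passed and, where none did, for the 3 with the smallest p. Most values of other gene lists and the differences at single times are given by header only.

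Libraries held 19336303 to 28934030 counts, of which the 44 genes took 0.752 to 0.843%, and the smallest count of any member in any library was 213. Values for a library are CPM, counts normalised to the library total and scaled by TMM (trimmed mean of M values), and fold changes are on the log2 scale with their standard error (SE). The B-cell genes MS4A1 and CD79A had 716 to 890.4 and 709 to 1205 CPM over the libraries, and the 4 T-cell markers summed to 6.09 to 9.55 CPM, the 4 myeloid markers to 1.04 to 2.04 and the 4 stromal and epithelial markers to 26.9 to 45.6 CPM. None of these markers was at 0 in all libraries, but CD4, CD8A, LYZ and COL1A2 stayed at 0.427 CPM or less. Of the 44 genes 13 overlap another gene with a mean count of at least 100, among them MCM7, PRIM1, RFC3, RFC5, RPA1, FEN1, CCNE2 and CHAF1B, and reads there may be mixed, since no source states whether counting used strand. Libraries also differed in how the level of a gene went with its transcript length. Over 14316 genes, Spearman's rho between transcript length and the difference from the mean of all libraries was lowest in SPX5551 cells at 8 h (-0.36) and highest in ibrutinib cells at 8 h (0.37).

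Promoters of the set were looked at for the letters that E2F factors are known to bind. The 8-letter words TTTCCCGC, TTTCGCGC, TTTGCCGC and TTTGGCGC were searched on both strands in the 300 bases around each start in the RefSeq promoter table (build GRCh38.p14), which held 38 of the 44 genes. They were present in 18 of 38 members (47.4%) and in 656 of the 9839 tested genes in that table (6.67%). The CCAAT word was present in 24 of 38 members (63.2%) and in 4294 of 9839 tested genes (43.6%). The promoters of 4 members are shown, read 5′ to 3′ on the strand of the gene and ending just before its outermost annotated start, with E2F-type letters in capitals. PCNA (GRCh38.p14, chr20:5126627-5126766, minus strand) and MCM6 (chr2:135876444-135876583, minus strand) carry such letters, which in MCM6 are 2 overlapping words on opposite strands. MCM10 (chr10:13161414-13161553, plus strand) and POLD1 (chr19:50384073-50384203, plus strand) carry none in these stretches, and they are shown because both moved with time, in opposite directions.

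PCNA: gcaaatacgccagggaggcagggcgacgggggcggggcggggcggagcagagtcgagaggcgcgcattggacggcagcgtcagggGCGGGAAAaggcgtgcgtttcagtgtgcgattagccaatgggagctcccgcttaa
MCM6: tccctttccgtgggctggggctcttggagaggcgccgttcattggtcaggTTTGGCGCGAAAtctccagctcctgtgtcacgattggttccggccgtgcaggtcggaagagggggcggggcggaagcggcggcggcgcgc
MCM10: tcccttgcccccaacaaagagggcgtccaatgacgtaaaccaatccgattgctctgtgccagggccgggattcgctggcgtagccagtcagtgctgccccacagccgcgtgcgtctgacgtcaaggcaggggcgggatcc
POLD1: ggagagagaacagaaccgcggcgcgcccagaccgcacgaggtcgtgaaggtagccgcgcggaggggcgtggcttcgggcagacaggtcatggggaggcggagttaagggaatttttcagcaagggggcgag

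Set against each other per transcript length, the genes covered a wide range of levels. PCNA, the clamp that holds polymerases on DNA, was the highest at 1307 ± 159 TPM (counts normalised for transcript length and library total; mean ± SD over 12 libraries), followed by the helicase subunit MCM7 at 894 ± 85.0 TPM and MCM3 at 577 ± 49.5 TPM. The flap nuclease FEN1 was next at 298 ± 30.7 TPM, and MCM4 followed at 271 ± 21.2 TPM, which overlaps FEN1 within their spread. At the low end stood POLA1, the catalytic subunit of polymerase alpha, at 15.4 ± 3.38 TPM, the GINS subunit GINS4 at 14.3 ± 1.78 TPM and the cyclin CCNE2 at 11.9 ± 3.87 TPM. These last 3 overlap within their spread. The most variable member across libraries was CCNE2, whose highest library was 2.31 times its lowest, and CDT1 followed at 2.02 times. CCNE1 and MCM3 varied least, at 1.20 and 1.21 times.

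**Figure D1:**
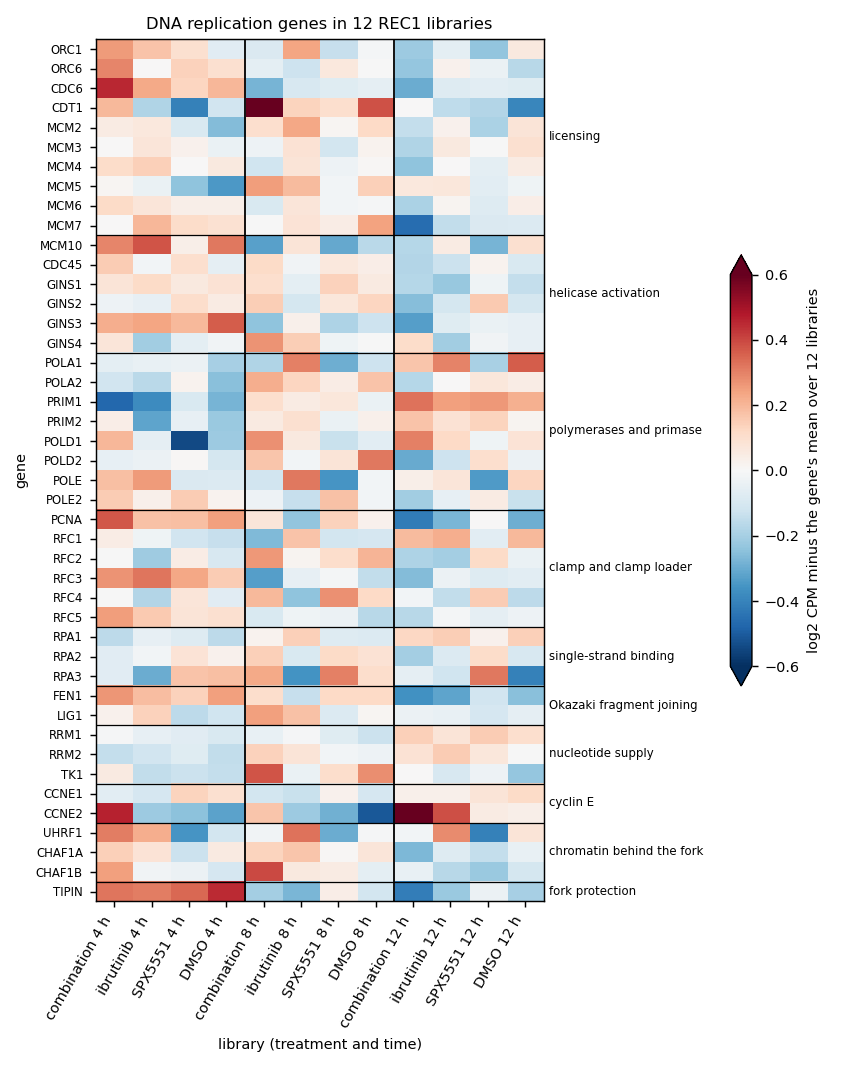
Each row is a gene, ordered by role, and each column a library, ordered by time and within it combination, ibrutinib, SPX5551 and DMSO; colour is log2 CPM minus the gene's mean over the 12 libraries, capped at 0.6. TIPIN, PCNA, FEN1 and CDC6 are redder at 4 h than at 12 h in all 4 treatments, and PRIM1 runs the other way. At 12 h PCNA and TIPIN lie near their means in SPX5551 cells, and CDC6 lies only slightly below its mean outside the combination.

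The set was first compared between times, which asks how its transcripts moved over the hours of culture whatever the treatment. Genes that passed at 12 h against 4 h went in both directions. PCNA, FEN1, TIPIN, CDC6 and MCM7 were among those that fell, by 0.29 to 0.57 on the log2 scale, while the primase genes PRIM1 and PRIM2, the polymerase gene POLD1, RPA1, RRM2 and CCNE2 rose, by 0.20 to 0.56. In edgeR's quasi-likelihood test with treatment and time as terms and Benjamini-Hochberg adjustment at 0.05, 11 of 44 members were lower and 6 were higher at 12 h than at 4 h. Over all 14412 genes 35.9% passed in this comparison, 17.5% lower and 18.4% higher, so the share of members that passed, 38.6%, is near that of all genes. The median log2 change of the members was -0.053. With counts scaled by library size alone the split of the members was 8 lower and 10 higher. Other measures moved with time too. The T-cell markers summed to 7.79 to 9.55 CPM at 12 h, against 6.09 to 7.68 CPM at 4 h, and the stromal and epithelial markers to 36.3 to 45.6 CPM at 12 h, against 26.9 to 37.5 CPM at 4 h. The 6 B-cell markers summed to 3940 to 4544 CPM at 4 h and 4348 to 4737 CPM at 12 h. These ranges overlapped, and at 8 h the sum was 4793 to 5168 CPM. Among them CD79A rose by 0.44 ± 0.084 (adjusted p = 0.00104) at 12 h against 4 h. Spearman's rho between exon length and the log2 change was 0.26 over the 44 members and 0.14 over 14316 genes. The part of these in the changes was not tested. In bulk RNA, fewer cells expressing a gene and less RNA per cell cannot be told apart, and a batch shared by the libraries of 1 time cannot be told apart from the time itself.

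At 12 h against 4 h, 3 of the 10 licensing genes were lower and none was higher, where 17.5% of all genes were lower and 18.4% higher. The number that passed was 2 to 3 in other settings and 2 to 4 with 1 library left out. CDC6, the loader of MCM rings, had 205, 176, 164 and 173 CPM at 4 h in combination, ibrutinib, SPX5551 and DMSO cells, 124, 141, 143 and 145 at 8 h and 122, 142, 144 and 143 at 12 h. Every 4 h library lay above every later one, with no overlap. The log2 change at 12 h was -0.38 ± 0.091 (SE; adjusted p = 0.0041). MCM7, a subunit of the ring, had 1212, 1387, 1304 and 1288 CPM at 4 h in the same order of treatments, 1205, 1281, 1247 and 1429 at 8 h and 881, 1091, 1139 and 1140.1 at 12 h. The 12 h libraries lay below all others, the combination library lowest, and the change was -0.29 ± 0.079 (SE; adjusted p = 0.00933). This call was lost without the 4 h ibrutinib library (-0.27, adjusted p = 0.0525), and MCM7 overlaps the expressed gene AP4M1 and the microRNA gene MIR25, whose reads may be mixed in. MCM2 to MCM6, ORC1 and CDT1 did not pass at 12 h, with log2 changes from -0.23 for ORC1 to 0.16 for MCM5. ORC6, a subunit of the origin recognition complex, fell by 0.23 ± 0.086 (adjusted p = 0.0439), a call kept in 5 of 12 fits that each left out 1 library.

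Of the 6 genes that activate the helicase, 3 were lower and none higher at 12 h than at 4 h, against 17.5% and 18.4% of all genes. The number that passed was 1 to 3 in other settings and 2 to 3 with 1 library left out. GINS3, a subunit of the GINS complex, had 33.4, 33.7, 32.8 and 36.9 CPM at 4 h in combination, ibrutinib, SPX5551 and DMSO cells, 24.2, 29.2, 25.2 and 26.3 at 8 h and 22.8, 27.2, 27.9 and 27.7 at 12 h. The 4 h libraries stood above all later ones, which overlapped each other. The change at 12 h was -0.38 ± 0.083 (SE; adjusted p = 0.00265) and at 8 h -0.38 ± 0.082 (SE; adjusted p = 0.00325). MCM10, the scaffold that helps start the helicase and whose promoter is shown above, had 107, 113, 89.4 and 108 CPM at 4 h, 69.4, 91.9, 70.3 and 77.8 at 8 h and 77.2, 90.1, 71.8 and 93.1 at 12 h in the same treatments. Its 4 h and 12 h libraries overlapped between treatments, but within each treatment the 12 h library was the lower. Its changes were -0.44 ± 0.077 (SE; adjusted p = 0.000912) at 8 h and -0.33 ± 0.077 (SE; adjusted p = 0.00369) at 12 h. GINS1 fell by 0.23 ± 0.073 (adjusted p = 0.0234) at 12 h, a call kept in 8 of 12 fits with 1 library left out and lost with library size alone. GINS2, GINS4 and CDC45 did not pass, at -0.092, 0.010 and -0.14.

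The clamp and its loader gave 3 lower genes of 6 at 12 h against 4 h and none higher, where 17.5% of all genes were lower and 18.4% higher. The number that passed was 2 to 4 both in other settings and with 1 library left out. PCNA had 767, 668, 670.3 and 702 CPM at 4 h in combination, ibrutinib, SPX5551 and DMSO cells, 622, 501, 651 and 601 at 8 h and 443, 488, 593 and 483 at 12 h. The 12 h libraries lay below the 4 h libraries without overlap, the SPX5551 library falling least. The log2 change was -0.49 ± 0.093 (SE; adjusted p = 0.000933). RFC3, a subunit of the loader, had 65.1, 67.5, 63.5 and 60.1 CPM at 4 h, 43.0, 52.3, 53.6 and 48.8 at 8 h and 45.2, 52.8, 51.3 and 51.8 at 12 h in those treatments. The 4 h libraries lay above all later ones, with changes of -0.38 ± 0.077 (SE; adjusted p = 0.00231) at 8 h and -0.35 ± 0.078 (SE; adjusted p = 0.00268) at 12 h. RFC5 fell by 0.21 ± 0.074 (adjusted p = 0.0365) at 12 h, a call kept in 7 of 12 fits with 1 library left out and lost with library size alone. The loader subunits RFC1, RFC2 and RFC4 did not pass, at 0.19, -0.0094 and 0.0022.

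FEN1, which trims the flaps between Okazaki fragments, had 273, 258, 250.3 and 269 CPM at 4 h in combination, ibrutinib, SPX5551 and DMSO cells, 244, 206, 247 and 247 at 8 h and 177, 182, 209 and 191 at 12 h. No 12 h library reached the lowest 4 h library, and the change was -0.47 ± 0.078 (SE; adjusted p = 0.000358). FEN1 overlaps the expressed genes TMEM258 and FADS2, so some reads may be theirs. LIG1, the ligase that seals the same fragments, did not pass, at -0.031 ± 0.074. TIPIN, a partner of Timeless that protects stalled forks, had 26.3, 26.0, 26.7 and 28.7 CPM at 4 h in those treatments, 18.3, 17.4, 21.7 and 19.5 at 8 h and 15.8, 18.0, 20.6 and 18.4 at 12 h. The change at 12 h was -0.57 ± 0.087 (SE; adjusted p = 0.00019), with no overlap between the 4 h libraries and the later ones.

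Of the 8 genes of polymerases and primase, 3 were higher and none lower at 12 h than at 4 h, against 18.4% and 17.5% of all genes. The number that passed was 1 to 4 in other settings and 2 to 3 with 1 library left out. PRIM1, the catalytic subunit of primase, had 49.1, 52.4, 64.0 and 56.1 CPM at 4 h in combination, ibrutinib, SPX5551 and DMSO cells, 73.2, 70.6, 71.5 and 66.3 at 8 h and 85.4, 80.8, 81.6 and 79.1 at 12 h. The times did not overlap, in rising order, and the change at 12 h was 0.56 ± 0.082 (SE; adjusted p = 0.000144). PRIM1 lies on the same strand as the overlapping gene NACA, so part of its count may come from NACA reads. POLD1, the catalytic subunit of polymerase delta and the fourth promoter shown above, had 75.7, 63.7, 45.4 and 56.7 CPM at 4 h, 79.9, 68.7, 60.2 and 63.1 at 8 h and 81.4, 71.7, 64.8 and 69.9 at 12 h. Its times overlapped, because the 4 h libraries spread from the SPX5551 library up to the combination library. The change was 0.27 ± 0.079 (SE; adjusted p = 0.0152), and without the 4 h SPX5551 library it was 0.20 (adjusted p = 0.0557). PRIM2, the other primase subunit, rose by 0.24 ± 0.082 (adjusted p = 0.0340), a call kept in 5 of 12 fits with 1 library left out. POLA1, POLA2, POLD2, POLE and POLE2 did not pass at 12 h, with values from -0.17 for POLE2 to 0.24 for POLA1.

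RPA1, RRM2 and CCNE2 also rose at 12 h against 4 h. RPA1, the large subunit of the protein that coats single strands, had 197, 212, 208 and 197 CPM at 4 h in combination, ibrutinib, SPX5551 and DMSO cells, 223, 242, 208 and 208 at 8 h and 239, 244, 224 and 242 at 12 h, a change of 0.22 ± 0.071 (SE; adjusted p = 0.0243). Its 12 h libraries lay above its 4 h libraries without overlap, and the call was kept in 7 of 12 fits with 1 library left out. RRM2, the small subunit of ribonucleotide reductase, had 312, 318, 328 and 311 CPM at 4 h, 379, 363, 340.1 and 337 at 8 h and 366, 383, 361 and 344 at 12 h, a change of 0.20 ± 0.070 (SE; adjusted p = 0.0391) that passed in 2 of 12 fits with 1 library left out. CCNE2, a cyclin that drives entry into S phase, had 21.3, 13.3, 13.1 and 12.4 CPM at 4 h, 17.4, 13.3, 12.7 and 10.9 at 8 h and 25.1, 20.3, 16.0 and 15.9 at 12 h. The combination library was the highest at each time, and the times overlapped between treatments. The change at 12 h was 0.37 ± 0.093 (SE; adjusted p = 0.00613). RPA2 and RPA3, RRM1, the thymidine kinase gene TK1, CCNE1, UHRF1 and the chromatin assembly genes CHAF1A and CHAF1B did not pass, with values from -0.17 for CHAF1A to 0.17 for RRM1.

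**Figure D2:**
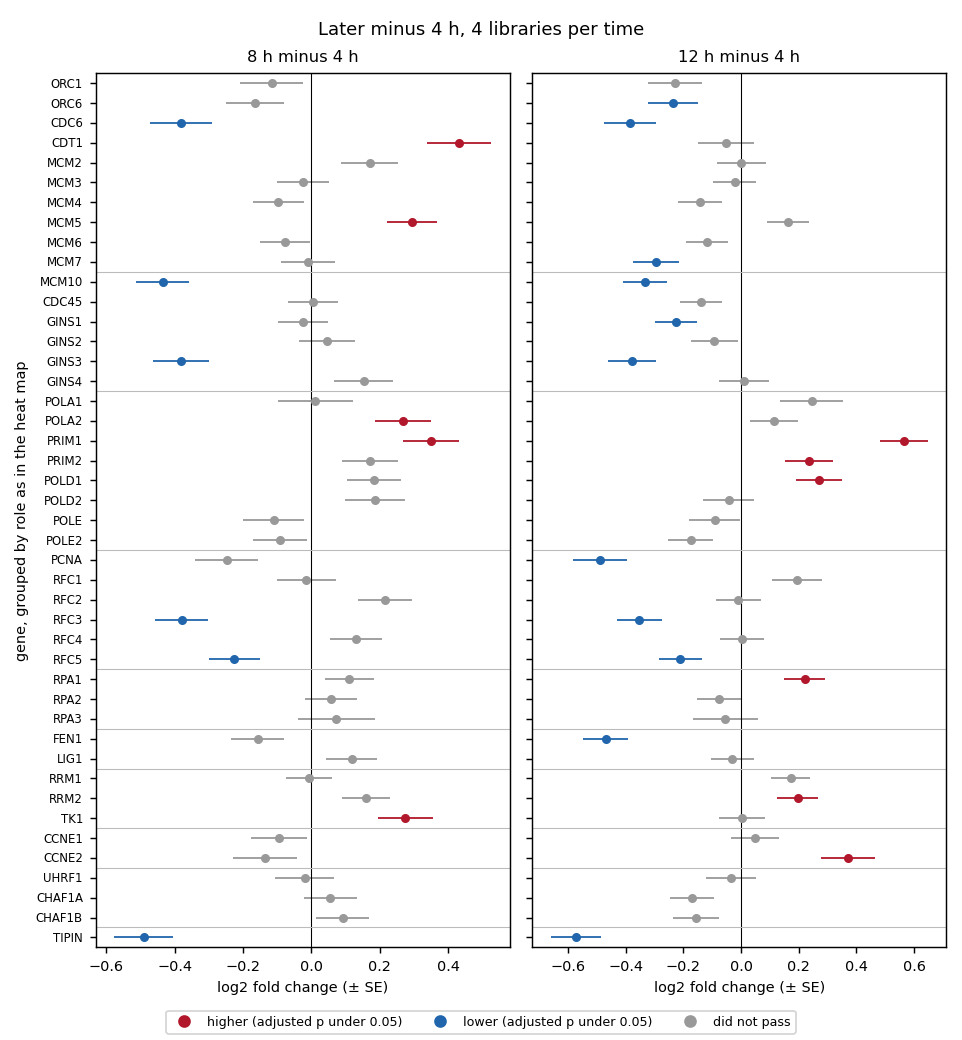
Points are log2 fold changes and bars their SE for each gene, 8 h minus 4 h on the left and 12 h minus 4 h on the right, with 4 libraries per time; red and blue mark genes with adjusted p under 0.05. At 12 h the 11 lower genes lie in licensing, helicase activation, clamp, Okazaki and fork protection roles, and the 6 higher ones among polymerases and primase, single-strand binding, nucleotide supply and cyclin E.

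CDT1 was higher at 8 h than at either other time. At 8 h against 4 h, 6 members were lower and 5 higher, where 26.6% of all genes passed (13.4% lower and 13.1% higher); with library size alone the split was 5 lower and 8 higher. The 5 higher were CDT1, which brings the MCM ring to origins (0.43 ± 0.094 SE, adjusted p = 0.00359), PRIM1 (0.35 ± 0.082 SE, adjusted p = 0.00568), MCM5 (0.30 ± 0.074), TK1 (0.28 ± 0.081) and POLA2, the regulatory subunit of polymerase alpha (0.27 ± 0.083). The 6 lower were TIPIN, MCM10, GINS3, CDC6, RFC3 and RFC5, with changes from -0.49 to -0.23. CDT1 had 31.6, 24.3, 20.8 and 25.4 CPM at 4 h in combination, ibrutinib, SPX5551 and DMSO cells, 42.1, 30.3, 29.5 and 35.8 at 8 h and 27.6, 24.8, 24.4 and 21.0 at 12 h. In each treatment its 8 h library was the highest. The TK1 call was lost after the length and GC trend was removed (0.058, adjusted p = 0.517) and was kept in 8 of 12 fits with 1 library left out. The MCM5 call was also lost after that trend was removed. POLA2 was kept in 6 and RFC5 in 7 of the 12 fits, and RFC5 was lost with library size alone.

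At 12 h against 8 h, 4 members were lower and 1 was higher, where 9.08% of all genes passed (4.66% lower and 4.41% higher); with library size alone the split was 2 and 2. CDT1 fell by 0.48 ± 0.094 (adjusted p = 0.0152), FEN1 by 0.31 ± 0.078 (adjusted p = 0.0298), MCM7 by 0.28 ± 0.079 (adjusted p = 0.0389) and TK1 by 0.27 ± 0.081 (adjusted p = 0.0469), while CCNE2 rose by 0.51 ± 0.093 (adjusted p = 0.0108). These counts rest on single libraries. None passed without the 8 h or 12 h library of either DMSO or the combination, and 10 passed without the 12 h SPX5551 library. TK1 passed in 3 of 12 such fits, MCM7 in 5, FEN1 in 6, and CDT1 and CCNE2 in 8 each. MCM7 and TK1 were lost with library size alone, and TK1 was -0.12 (adjusted p = 0.215) after the length and GC trend was removed.

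**Figure D3:**
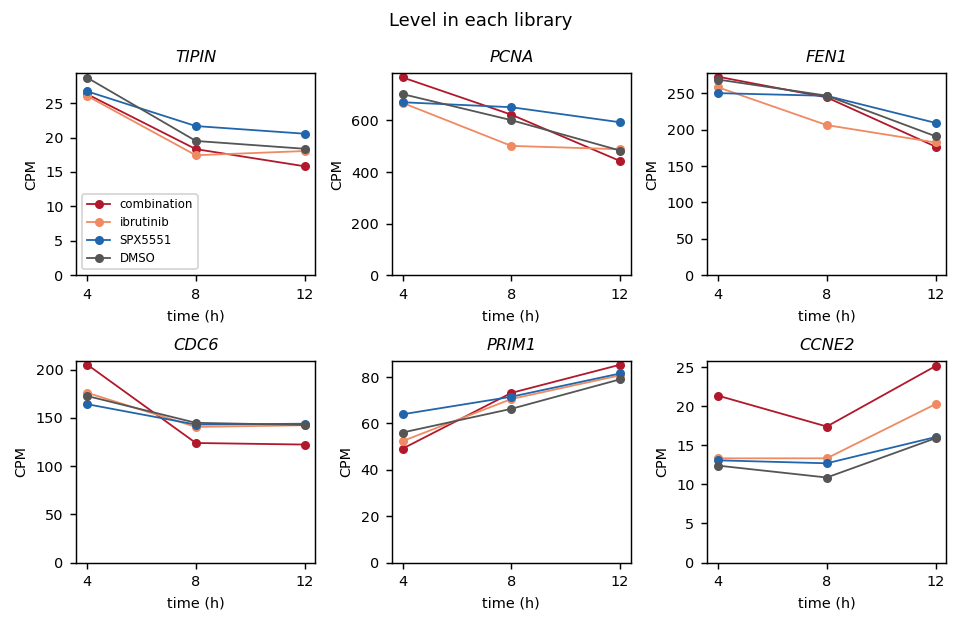
CPM of 6 genes in each of the 12 libraries against time in hours, 1 line per treatment, with the axis starting at 0. TIPIN and CDC6 drop between 4 and 8 h, PCNA and FEN1 are lowest at 12 h, PRIM1 climbs at each step, and CCNE2 is highest in the combination at all 3 times.

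E2F-type letters were counted by how the genes moved, as a description with no test. Of the members in the promoter table, 7 of 11 that were lower at 12 h than at 4 h held them (CDC6, MCM7, GINS1, GINS3, PCNA, RFC3 and TIPIN), against 0 of 5 that were higher and 11 of 22 that did not pass. CCNE2, the sixth higher gene, is not in the table. No promoter without these letters is thereby shown to lack E2F binding.

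The next comparisons ask what the treatments did to the set across the 3 times. Few of its genes passed. Against DMSO the combination raised 2 of 44 members, CCNE2 and POLD1, and lowered none, where 9.57% of all genes passed (5.41% lower and 4.16% higher). The members' median log2 change was 0.017. CCNE2 had 21.3, 17.4 and 25.1 CPM at 4, 8 and 12 h in combination cells and 12.4, 10.9 and 15.9 CPM in DMSO cells. The combination was the higher at each time, and its lowest library lay above the highest DMSO library. The change was 0.71 ± 0.11 (SE; adjusted p = 0.00111), a fold of 1.63, and it passed in each of 15 fits that left out 1 library or 1 time, with values from 0.62 to 0.73. Paired by description it was -0.60 (adjusted p = 0.00488), and with no term for time it was 0.70 (adjusted p = 0.240). CCNE2 overlaps the expressed genes INTS8 and NDUFAF6 on the other strand.

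POLD1 had 75.7, 79.9 and 81.4 CPM in combination cells at 4, 8 and 12 h and 56.7, 63.1 and 69.9 CPM in DMSO cells. The groups did not overlap, and the change was 0.33 ± 0.091 (SE; adjusted p = 0.0346). This call was fragile. It passed in 3 of the same 15 fits, was 0.13 (adjusted p = 0.263) after each library's trend with transcript length and GC content was removed, and was -0.49 (adjusted p = 0.00660) with columns paired by description. The remaining 42 members did not pass, with log2 changes from -0.23 for MCM7 to 0.31 for CDT1. Among them CHAF1B, a subunit of the chromatin assembly factor, came nearest at 0.29 ± 0.090 (adjusted p = 0.0556).

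Neither agent alone moved a member past the test. With ibrutinib alone 0 of 44 passed in edgeR, 2 had an unadjusted p under 0.05 and 0 passed in DESeq2; of all genes 0.104% passed in edgeR, all lower, and 11% had an unadjusted p under 0.05. The smallest p-values belonged to UHRF1, which keeps DNA methylation in place behind the fork (0.29 ± 0.10 SE, adjusted p = 0.452), CCNE2 (0.25 ± 0.11 SE, adjusted p = 0.452) and POLE, the catalytic subunit of polymerase epsilon (0.20 ± 0.10 SE, adjusted p = 0.462). With columns paired by description these 3 values were -0.11, -0.71 and -0.020. With SPX5551 alone 0 of 44 passed in edgeR and in DESeq2, and 5 had an unadjusted p under 0.05; of all genes 0% passed in edgeR and 8.33% had an unadjusted p under 0.05. The smallest p-values were those of UHRF1 (-0.34 ± 0.10 SE, adjusted p = 0.598), MCM10 (-0.27 ± 0.089 SE, adjusted p = 0.598) and POLE (-0.28 ± 0.10 SE, adjusted p = 0.598), and by description they were 0.18, 0.24 and 0.18.

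UHRF1 and POLE stood on opposite sides of DMSO under the single agents. UHRF1 had 113, 122 and 118 CPM at 4, 8 and 12 h in ibrutinib cells, 76.1, 79.0 and 73.5 in SPX5551 cells and 90.0, 96.8 and 103 in DMSO cells. These 3 groups did not overlap. In combination cells UHRF1 had 120, 95.9 and 96.0 CPM, above DMSO at 4 h and below it at 8 and 12 h. POLE had 253, 263 and 223 CPM in ibrutinib cells, 199, 165 and 167 in SPX5551 cells and 200.1, 209 and 232 in DMSO cells, with ibrutinib and DMSO overlapping. In combination cells POLE had 240, 196 and 217 CPM, also above DMSO at 4 h and below it at 8 and 12 h. Transcript length moved with the values of the single agents. Over the 44 members, Spearman's rho between exon length and log2 change was 0.66 for ibrutinib against DMSO, -0.59 for SPX5551 against DMSO and 0.11 for the combination against DMSO, and over 14316 genes it was 0.38, -0.32 and 0.0086. The 44 genes share these libraries, both single-agent comparisons share the DMSO libraries, and the part of length in the values was not tested.

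**Figure D4:**
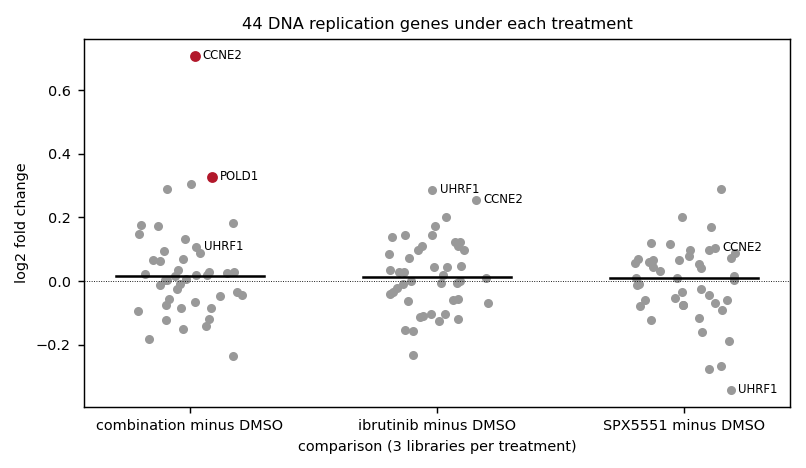
Each point is 1 of 44 genes and the black bars are medians, with log2 fold changes of the combination, ibrutinib and SPX5551 minus DMSO from 3 libraries per treatment; sideways scatter only separates points. CCNE2 and POLD1, in red, are the members that passed, at 0.71 and 0.33, and the medians lie at 0.017, 0.013 and 0.011.

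Set against the single agents, the combination had CCNE2 on top in both comparisons. Against ibrutinib 1 member passed, CCNE2 (0.45 ± 0.11 SE, adjusted p = 0.0238), where 5.49% of all genes passed (3.39% lower and 2.1% higher); it passed in 9 of 15 fits with a library or time left out. By description its value was 0.10. Against SPX5551 4 members were higher and none lower, where 7.24% of all genes passed (3.97% lower and 3.27% higher). They were CCNE2 (0.60 ± 0.11 SE, adjusted p = 0.00488), POLD1 (0.49 ± 0.091 SE, adjusted p = 0.0066), UHRF1 (0.45 ± 0.10 SE, adjusted p = 0.0157) and CDT1 (0.43 ± 0.11 SE, adjusted p = 0.0281). Without the 4 h libraries none of the 4 passed, CCNE2 being 0.55 (adjusted p = 0.0651) and POLD1 0.37 (adjusted p = 0.110). UHRF1 passed in 10 and CDT1 in 8 of 15 fits with a library or time left out, and CDT1 was 0.22 (adjusted p = 0.0835) after the length and GC trend was removed. By description the 4 values of CCNE2, POLD1, UHRF1 and CDT1 were -0.15, -0.27, -0.63 and -0.089.

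The interaction asks whether the combination departed from the sum of both agents on the log2 scale. No member passed in edgeR or DESeq2, 3 had an unadjusted p under 0.05, and of all genes 0% passed in edgeR and 5.86% had an unadjusted p under 0.05. The smallest p-values were those of CDT1 (0.46 ± 0.15 SE, adjusted p = 0.766), POLD1 (0.38 ± 0.13 SE, adjusted p = 0.766) and CCNE2 (0.35 ± 0.15 SE, adjusted p = 0.833). The 95% interval for CCNE2 ran from 0.025 to 0.67, and for CDT1 from 0.13 to 0.79. By description 4 members passed, CCNE2 among them at 0.56 (adjusted p = 0.0405), and CDT1 and POLD1 were 0.22 and 0.057. The 6 libraries that received ibrutinib were then put against the other 6, with SPX5551 and time as terms. In them 4 members were higher and none lower, where 13.7% of all genes passed (6.58% lower and 7.14% higher). These were CCNE2 (0.43 ± 0.086 SE, adjusted p = 0.00809), UHRF1 (0.37 ± 0.072 SE, adjusted p = 0.00772), POLD1 (0.30 ± 0.078 SE, adjusted p = 0.022) and POLE (0.25 ± 0.072 SE, adjusted p = 0.0324). UHRF1 passed in 14, CCNE2 in 13, POLD1 in 8 and POLE in 5 of 15 fits with a library or time left out. In combination cells UHRF1 and POLE lay above DMSO at 4 h only. None of the 4 members passed without the 8 h libraries. The POLE call was also lost after the length and GC trend was removed (0.094, adjusted p = 0.240) and when the ibrutinib library of 8 h and the SPX5551 library of 12 h were both left out (0.15, adjusted p = 0.261). By description the values of CCNE2, UHRF1, POLD1 and POLE were -0.43, -0.37, -0.30 and -0.25.

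Time by time, the combination moved across its DMSO library. At 4 h 34 of 44 members were higher in the combination library than in DMSO, with a median log2 difference of 0.11. At 8 h this held for 24 members (median 0.034) and at 12 h for 14 (median -0.095). Of all genes, 47.1% were lower in the combination library than in DMSO at 4 h, 49.2% at 8 h and 49.8% at 12 h. Licensing genes followed this course, with 9 of 10 above DMSO at 4 h (median 0.22), 2 of 10 at 8 h (median -0.064) and 2 of 10 at 12 h (median -0.23). Nucleotide supply did not follow, since RRM1, RRM2 and TK1 were above DMSO at all 3 times, RRM2 by only 0.0042 at 4 h. Polymerases and primase had 7 of 8 above DMSO at 4 h and 3 of 8 at 12 h. The single agents, read against the same DMSO libraries, had a like course in licensing genes. With ibrutinib alone 8, 6 and 3 of the 10 were above DMSO at 4, 8 and 12 h, and with SPX5551 alone 7, 1 and 3. Of the 8 polymerase and primase genes, 6 were above DMSO at 4 h with each single agent. At 12 h this held for 4 with ibrutinib and 5 with SPX5551. Of the 3 nucleotide supply genes, 2 were above DMSO at each time with ibrutinib. With SPX5551 it was 3, 2 and 3 of them at 4, 8 and 12 h. Ibrutinib alone had 28, 25 and 21 members above DMSO at 4, 8 and 12 h, and SPX5551 alone 27, 18 and 24. Of all genes, 47.1, 47.1 and 49% were lower than DMSO with ibrutinib at these times, and 53.6, 51.6 and 49.2% with SPX5551. With 1 library per treatment and time these differences have no replicate, and no test was made. TMM factors, which divide a library's CPM, were 0.995, 1.02 and 1.09 in combination libraries at 4, 8 and 12 h. In DMSO libraries they were 0.940, 0.973 and 1.02. Medians this small depend on that scaling, and the differences were not computed with library size alone.

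ORC1, the largest subunit of the origin recognition complex, had 132, 104 and 95.1 CPM at 4, 8 and 12 h in combination cells, 124, 130.4 and 106 in ibrutinib cells, 118, 100.4 and 93.7 in SPX5551 cells and 105, 109 and 115 CPM in DMSO cells. The combination and SPX5551 alone were both above DMSO at 4 h and below it at 8 and 12 h. Within treatments, 31 of 44 members were lower at 12 h than at 4 h in the combination (median log2 difference -0.19), against 25 in ibrutinib (-0.045), 24 in SPX5551 (-0.040) and 23 in DMSO (-0.0054). The share over all genes was 52.2% in the combination, 50.2% in ibrutinib, 48.4% in SPX5551 and 49.4% in DMSO. TMM factors at 4 and 12 h were 0.995 and 1.09 in the combination and 0.940 and 1.02 in DMSO. These counts and medians depend on that scaling and were not computed with library size alone.

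**Figure D5:**
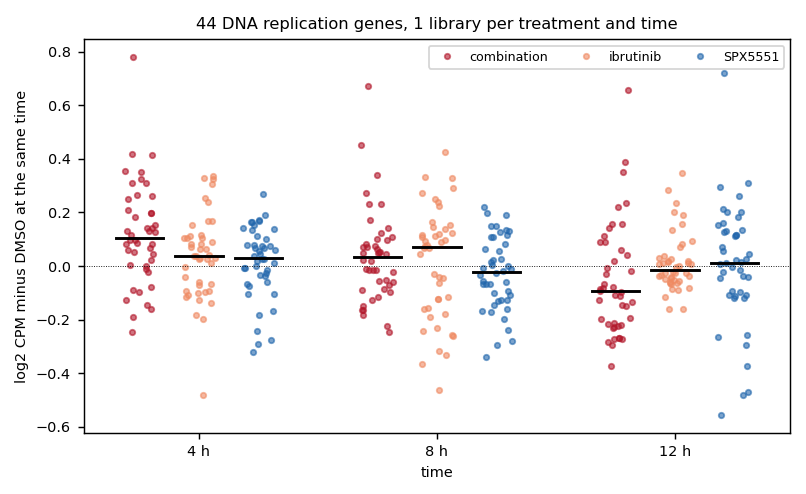
Each point is 1 gene's log2 CPM minus that of the DMSO library at the same time, for the combination, ibrutinib and SPX5551 at 4, 8 and 12 h, and black bars are medians over 44 genes. The combination's median lies at 0.11, 0.034 and -0.095; each cloud is 1 library against 1 library.

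Genes around the set give its setting. Of 18 other genes of nucleotide synthesis, 7 were lower and none higher in the combination than in DMSO (median -0.23), where 5.41% of all genes were lower and 4.16% higher. The lower ones included ATIC of purine synthesis (-0.50 ± 0.083, adjusted p = 0.00198), the nucleoside diphosphate kinase NME1 (-0.50 ± 0.12, adjusted p = 0.0218), and CAD and UMPS of pyrimidine synthesis (-0.43 ± 0.12, adjusted p = 0.0323, and -0.35 ± 0.090, adjusted p = 0.0242). This count rests on single libraries and times. It was 1 without the combination library of 12 h or the DMSO library of 8 h and 3 without the DMSO library of 4 h or of 12 h. It was 0, 1 and 2 without all libraries of 4, 8 and 12 h in that order, 2 with library size alone, 0 with no term for time, and 4 with columns paired by description. The 3 members of the set with that role, RRM1, RRM2 and TK1, did not pass, at 0.069 ± 0.078, 0.089 ± 0.081 and 0.17 ± 0.093.

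Of 31 other replication factors, 2 were higher in the combination than in DMSO, where 4.16% of all genes were higher. They were CHTF18 of an alternative clamp loader (0.71 ± 0.13, adjusted p = 0.00329) and POLD4, a small subunit of polymerase delta (0.65 ± 0.14, adjusted p = 0.0121). Of 23 tested genes of the G1/S switch, 3 were higher, E2F7 (0.62 ± 0.16, adjusted p = 0.0265), CDKN2D (0.56 ± 0.16, adjusted p = 0.0421) and CCND3 (0.45 ± 0.11, adjusted p = 0.02). Of 20 mitosis genes, 2 were higher, CCNB2 (0.33 ± 0.095, adjusted p = 0.0419) and NUSAP1 (0.31 ± 0.081, adjusted p = 0.0277). Of 14 genes of replication stress signalling none passed in edgeR or DESeq2, and 1 had an unadjusted p under 0.05. With 1 library or time left out, 1 to 3 of the other replication factors, 0 to 5 of the G1/S genes and 0 to 2 of the mitosis genes passed.

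Between times, these lists also held genes that passed in both directions. At 12 h against 4 h, where 35.9% of all genes passed (17.5% lower and 18.4% higher), 4 of 31 other replication factors were lower and 7 higher, among them GMNN, the inhibitor of CDT1 (-0.68 ± 0.11, adjusted p = 0.000253), DBF4, the activator of the CDC7 kinase (-0.47 ± 0.078, adjusted p = 0.000322), POLD4 (1.20 ± 0.13, adjusted p = 1.89e-05) and TOP2A (0.40 ± 0.096, adjusted p = 0.00449). In the G1/S list 6 were lower and 7 higher of 23, CDC25A falling by 0.50 ± 0.081 (adjusted p = 0.000267) and the inhibitors CDKN2C and CDKN1B rising by 0.66 ± 0.080 (adjusted p = 3.96e-05) and 0.49 ± 0.091 (adjusted p = 0.000781). Mitosis gave 5 lower and 8 higher of 20. Replication stress gave 3 lower and 5 higher of 14, with ATM at 1.11 ± 0.15 (adjusted p = 0.000106) and BRCA1 at 0.89 ± 0.12 (adjusted p = 0.000107). Both rose least in SPX5551 cells. At 12 h ATM had 163 CPM there, against 299, 307 and 284 in combination, ibrutinib and DMSO cells. BRCA1 had 89.7 CPM there, against 138, 134 and 132. The other genes of nucleotide synthesis gave 5 lower and 3 higher of 18, with CTPS1 at -0.46 ± 0.072 (adjusted p = 0.000215) and SAMHD1, which degrades nucleotides, at 0.52 ± 0.095 (adjusted p = 0.000734). With library size alone the lower and higher counts were 3 and 9 for other replication factors, 3 and 8 for the G1/S list, 5 and 8 for mitosis, 1 and 6 for replication stress and 3 and 8 for nucleotide synthesis. BTK and CXCR4, the targets of the agents, were each higher at 12 h than at 4 h, at 0.23 ± 0.072 (adjusted p = 0.0190) and 0.33 ± 0.11 (adjusted p = 0.0327).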

How the data were processed

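Poly(A) RNA libraries of REC1 cells were sequenced on a NextSeq2000, per the labels' protocols. BWA and the build hg38 are named in the submitters' processing notes; counting tool, annotation and strand setting were not given in the sources used here. The labels call the molecule genomic DNA, which the RNA protocol contradicts. The authors deposited raw counts per gene and, for 14767 genes, log2 CPM, which correlated with CPM recomputed here at r of at least 0.999999 and was used only for that check. Columns were assigned by the treatment and time in their headers, where ibrutinib is shortened to ibr. Symbols came from GENCODE release 29 (93.8% of identifiers). Counts were filtered with filterByExpr, scaled by TMM and tested in edgeR 4.0.16 (R 4.3.3), adjusting over 14412 genes. Treatment and time were additive terms (6 residual degrees of freedom). The fit for ibrutinib exposure instead had ibrutinib, SPX5551 and time as terms. A prior count of 2 was used for log2 CPM only, and the tests kept edgeR's default. SE is the absolute log2 fold change over the square root of F, and 95% intervals use the t distribution. DESeq2 1.42.0 was an alternative. TPM used exon lengths. The script was tested on simulated data. Chi-square per degree of freedom between the closest 2 libraries was 4.88, so no library repeated another. Genes were named if adjusted p was under 0.05, up to 15 per direction, otherwise the 3 smallest p, and all 12 values were given for up to 2 called genes per role at 12 h against 4 h; CDT1, UHRF1, POLE and ORC1 were added after their values were seen. Members and lists were chosen with earlier results of these data known. One marker gene is not reported here.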

Additional observations from a re-analysis of the deposited data

Results flagged for a closer look

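The 71 groups examined were each of 4 libraries of 1 time or of the 6 libraries with or without ibrutinib. In 5 of them, all of 4 libraries of 1 time, a value lay further from the nearest library than Dixon's 95% critical value allows. Chance, at about 1 in 20 of the 71 groups, gives about 3.55. Cyclin CCNE2 had 21.3 CPM in the 4 h combination library, against 13.3 in the nearest library of that time. CDC6 had 122 CPM in the 12 h combination library, against 142 in the nearest. FEN1 had 206 CPM in the 8 h ibrutinib library, against 244 in the nearest. GINS3 had 22.8 CPM in the 12 h combination library, against 27.2 in the nearest. TK1 had 115 CPM in the 4 h combination library, against 102 in the nearest. Of the 5 values 4 were from combination libraries, and the cause was not tested.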

How the results depend on the processing

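Numbers of members that passed moved with the setting as follows, and the cause was not tested. With no term for time the counts were 0 for the combination against DMSO, against ibrutinib and against SPX5551 and 0 for ibrutinib exposure, and with no term for treatment they were 8 at 12 h against 4 h, 6 at 8 h against 4 h and 0 at 12 h against 8 h. With library size alone they were 4 for the combination against DMSO and 2 against ibrutinib. Removing the length and GC trend gave 3 for the combination against ibrutinib, and DESeq2 gave 9 at 12 h against 8 h. Leaving out both the ibrutinib library of 8 h and the SPX5551 library of 12 h, 5 passed for the combination against DMSO and 17 at 12 h against 8 h. With columns paired by description, 4 passed, all lower, for the combination against DMSO, 2 for ibrutinib, 1 for SPX5551, 0 for the combination against ibrutinib, 4 for the interaction and 2 for ibrutinib exposure.

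Leaving out 1 library, or 1 time for treatments, gave 1 to 2 members for the combination against DMSO, 0 to 1 for ibrutinib, 0 to 0 for SPX5551, 0 to 3 for the combination against ibrutinib, 0 to 4 against SPX5551, 0 to 0 for the interaction, 0 to 5 for ibrutinib exposure, 11 to 17 at 12 h against 4 h, 8 to 13 at 8 h against 4 h and 0 to 10 at 12 h against 8 h. At 12 h against 4 h, 11 passed without the 12 h combination or the 4 h ibrutinib library. TIPIN, PCNA, FEN1, CDC6, GINS3, RFC3 and PRIM1 passed at 12 h against 4 h in all 7 other settings and all 12 fits with 1 library left out.

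Of 1087 gene results under other settings, 882 kept direction and side of the threshold, 188 were no longer past it, 1 newly passed and 16 reversed, each by pairing columns by description. These were, for the combination against DMSO, CCNE2 -0.60 and POLD1 -0.49; for ibrutinib, UHRF1 -0.11, CCNE2 -0.71 and POLE -0.020; for SPX5551, UHRF1 0.18, MCM10 0.24 and POLE 0.18; for the combination against SPX5551, CCNE2 -0.15, POLD1 -0.27, UHRF1 -0.63 and CDT1 -0.089; and for ibrutinib exposure, CCNE2 -0.43, UHRF1 -0.37, POLD1 -0.30 and POLE -0.25. Pairing by description moves the same columns between treatments within a time, so these values are other contrasts of the headers. The combination against DMSO by description is the combination against SPX5551 by header with the sign turned, as for CCNE2 (-0.60 and 0.60). They are thus not separate results. Depth was at least 213 counts per member and library. Time pairs the libraries across treatments and is a term of the model, so the counts with no term for time are those without this pairing. The replicate numbers only name libraries, each number standing for 1 time.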

Other observations

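The 6 libraries that received ibrutinib were set against the other 6. Of 20 tested mitosis genes, 9 were higher and none lower (median log2 change 0.15), where 7.14% of all genes were higher and 6.58% lower. They included the proliferation antigen MKI67 (0.47 ± 0.12, adjusted p = 0.0227), the kinetochore proteins CENPE (0.41 ± 0.11, adjusted p = 0.0211) and CENPF (0.33 ± 0.099, adjusted p = 0.0384) and the kinesin KIF20A (0.30 ± 0.077, adjusted p = 0.0210), in edgeR's quasi-likelihood test with Benjamini-Hochberg adjustment. The count was 10 after the length and GC trend was removed and 8 in DESeq2, but 0 to 10 with 1 library or 1 time left out. It was 0 without any one of the combination library of 4 h or 12 h, the SPX5551 library of 8 h or 12 h, the ibrutinib library of 8 h or the DMSO library of 4 h, 2 without the DMSO library of 8 h and 4 without the ibrutinib library of 12 h. It was also 0 with no term for time and with columns paired by description. MKI67 had 558, 423 and 777 CPM at 4, 8 and 12 h in combination cells and 566, 876 and 826 in ibrutinib cells. In SPX5551 cells it had 413, 371 and 388 CPM, and in DMSO cells 422, 498 and 844. The combination thus lay above DMSO at 4 h only, and ibrutinib alone at 4 and 8 h. CENPE in the combination at 8 h was also below DMSO (100 against 117 CPM), and above it in the other libraries that received ibrutinib.

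In the same comparison 1 of 23 tested genes of the G1/S switch was lower and 2 were higher. CDK4, the kinase that cyclin D activates, was lower (-0.32 ± 0.072, adjusted p = 0.0136), and the repressor E2F7 (0.54 ± 0.13, adjusted p = 0.0153) and the activator E2F2 (0.24 ± 0.058, adjusted p = 0.0185) were higher. Of 31 other replication factors 5 were higher and none lower, among them DNMT1, the methyltransferase that UHRF1 brings to replicated DNA (0.32 ± 0.077, adjusted p = 0.0163). Of 18 other genes of nucleotide synthesis 5 were lower and none higher, among them NME1 (-0.52 ± 0.090, adjusted p = 0.00369). With 1 library or time left out, 0 to 6 of the G1/S genes, 0 to 6 of the other replication factors and 0 to 8 of the nucleotide synthesis genes passed, and with columns paired by description 2, 1 and 1 of these lists did. Of 14 genes of replication stress signalling 0 passed in edgeR and 2 had an unadjusted p under 0.05, with BRCA2 nearest at 0.30 ± 0.11 (adjusted p = 0.0696).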
